A study of Mus musculus with 72 samples.

Results

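The cells described here are 80 of the 2350 Pet1 neurons in the 10X table, chosen by a score over Npas1, Gabre, Sema5a, Gabrq, Npas3 and Pou3f1. For each cell the UMI counts were scaled to 10000 and log-transformed, each of the 6 genes was turned into a z-score over all cells, and the 80 cells with the highest mean were taken. These cells are called Npas1 Gabrq Pet1 neurons. The 6 genes chose them, so they are given to describe the choice and its boundary and support no result, and other genes that go with them across cells can differ through the choice alone.

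Pet1, also called Fev, is a transcription factor that is switched on in developing serotonin neurons and maintains the genes for serotonin synthesis and transport. The dorsal raphe is the largest serotonin nucleus of the brain, and its neurons differ in the other transmitters, peptides and receptors that they use. Npas1 and Npas3 are transcription factors of the bHLH-PAS family, Pou3f1 is a POU-domain transcription factor, Gabre and Gabrq are the epsilon and theta subunits of the GABA-A receptor, a chloride channel opened by GABA, and Sema5a is an axon guidance protein of the semaphorin family.

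The 10X cells were sorted from the whole dorsal raphe of mice in 2 runs, 1 from Pet1::Flpe+/-; hM3Dq+/+ mice at a mean age of postnatal day 65.5 and 1 from mice at a mean age of postnatal day 59, with the genotype En1::cre+/-;Pet1::Flpe+/-;RC::FrePe+/-. Flpe is a recombinase driven by the Pet1 enhancer, so all cells had once used that driver, and in the second genotype the sorted cells also had a history of En1, a midbrain and anterior hindbrain gene. Several mice were pooled in each run and no cell is tied to an animal or a run. The table was therefore taken as 1 sample, no p-value is given, and the barcode endings serve as a split into barcode set 1 (869 cells) and barcode set 2 (1481 cells), which share no barcode.

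The 80 members had between 13947 and 90173 UMIs per cell with a median of 49950.5, below the median of 59981 in the other 2270 cells. Of the members, 30 were in barcode set 1, which is 37.5% (exact binomial 95% interval 26.9% to 49.0%) beside 37.0% of the other cells. No member was among the 14 cells called doublets. A level is given in CPM, the UMIs of a gene summed over the cells of a group and scaled to a common total, with its Poisson interval (exact, 95%) in parentheses. A ratio is the log2 of the members' CPM over that of the cells compared, and all intervals cover counting error only.

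The members were Pet1 serotonin neurons by their markers. All 80 cells had UMIs of Tph2, which makes the first enzyme of serotonin synthesis, of the serotonin transporter Slc6a4, of the vesicular transporter Slc18a2, and of Fev. The authors had removed libraries with no Fev or unusually little, so Fev in every member follows from that filter. The 9 markers of such neurons summed to between 4960 and 13701 CPM per member, with a median of 7813, beside a median of 9629 in the other cells. A UMI of every one of the 9 was found in 70 members. Tph2 ranged from 926 to 5545 CPM over the members with a median of 1905, and from 0 to 8280 with a median of 2606 over the others, so the 2 ranges overlapped and the middle of the members lay lower.

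Markers of other cell types were low. The 6 oligodendrocyte markers in the table summed to 32.2 CPM in members and 33.6 CPM in other cells, with at most 150 CPM in any member and Olig2 at 0. The 5 astrocyte markers came to 1.47 CPM, the 5 microglial markers to 0.491 CPM with C1qa, P2ry12 and Csf1r at 0, and the 5 vessel markers to 0.737 CPM with Flt1, Rgs5 and Kdr at 0. The 3 cholinergic markers were at 2.46 CPM in members, from 10 UMIs, and 1.13 CPM in other cells, with Chat at 0, 1 member at 190 CPM and a median of 0, and Th, Dbh and Slc17a6, which mark dopamine, noradrenaline and other glutamate neurons, were at 0.

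The score fell without a step at the boundary. The members ran from 4.51 to 1.813, and the next cell stood at 1.811. Of the 10 members just inside, 5 had an Npas1 UMI and 10 a Gabrq UMI, and of the 10 cells just outside, 3 had an Npas1 UMI and 10 a Gabrq UMI. All 6 genes had a UMI in 44 members, and 19 members had none of Npas1. The plot of score by rank shows that the members are the top of a gradient.

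**Figure D1:**
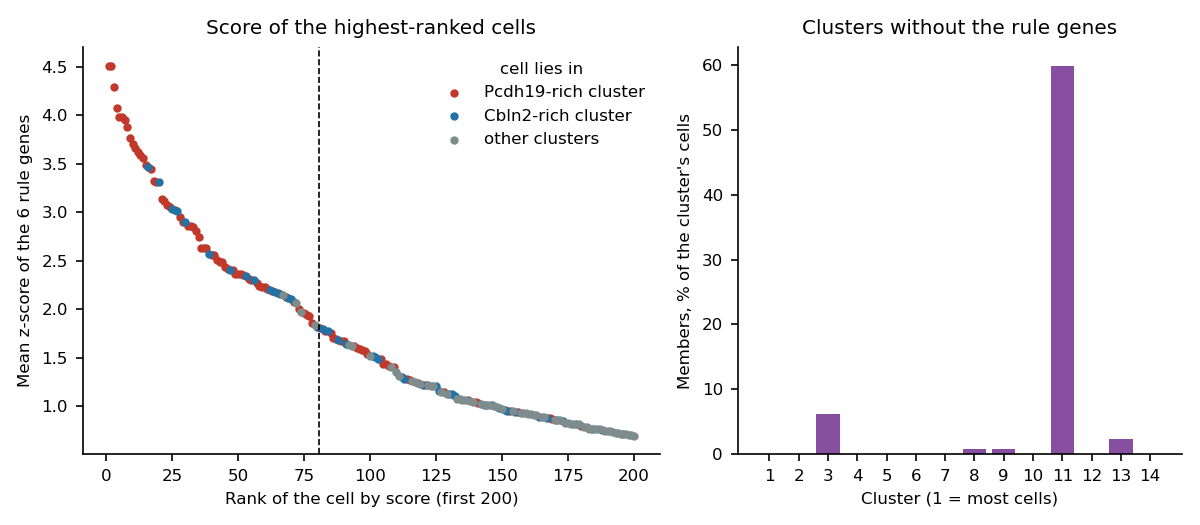
Left, mean z-score of the 6 genes against rank for the first 200 of 2350 cells, coloured by the cluster the cell lies in, with a dashed line after rank 80. Right, members as a percentage of the cells of each of 14 clusters made without the 6 genes. Cells of both main clusters are mixed along the ranks, and members make up 59.8% of cluster 11 and 6.12% of cluster 3.

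The members fell mainly into 1 transcriptional group, and a smaller part fell into another. Cells were clustered as the study describes, but with the 6 genes left out of the variable genes, which gave 14 clusters. Of the 80 members, 61 (76.2%, interval 65.4% to 85.1%) lay in a cluster of 102 cells led by Pcdh19, Sostdc1 and Dlk1, called the Pcdh19-rich cluster here, and 15 lay in a cluster of 245 cells led by Crhr2, Cbln2 and Hs3st5, called the Cbln2-rich cluster. The other 4 members were in 3 further clusters. With the 6 genes kept in, the largest cluster held 60 members, or 75.0%. Of the 20 nearest cells of a member in 50 components made without the 6 genes, 61.7% were members on average, whereas members are 3.40% of all cells. That share was 70.0% for members of the Pcdh19-rich cluster and 41.3% for members of the Cbln2-rich cluster.

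Outside the 6 genes, Npas1 Gabrq Pet1 neurons differed from the other cells mostly by a small set of genes. A gene counts as tested, meaning compared without a statistical test, where the members held 100 UMIs or more, or would at the level of the other cells. Of 5918 such genes, 64 were at least 2-fold higher (1.08%) and 100 at least 2-fold lower (1.69%), with a median log2 ratio of -0.02 over all of them. Each of the 164 ratios had the same sign in both barcode sets (Nptx1, without a UMI in members of set 1, was taken as lower there), and 51 of the higher and 87 of the lower genes passed 2-fold in each set. The genes at the top were Fam114a1, Calb2, Sln, Ncam2 and Pcdh19, and near the bottom stood Kit, Pdyn, Nhsl1, Nptx1 and Ret.

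**Figure D2:**
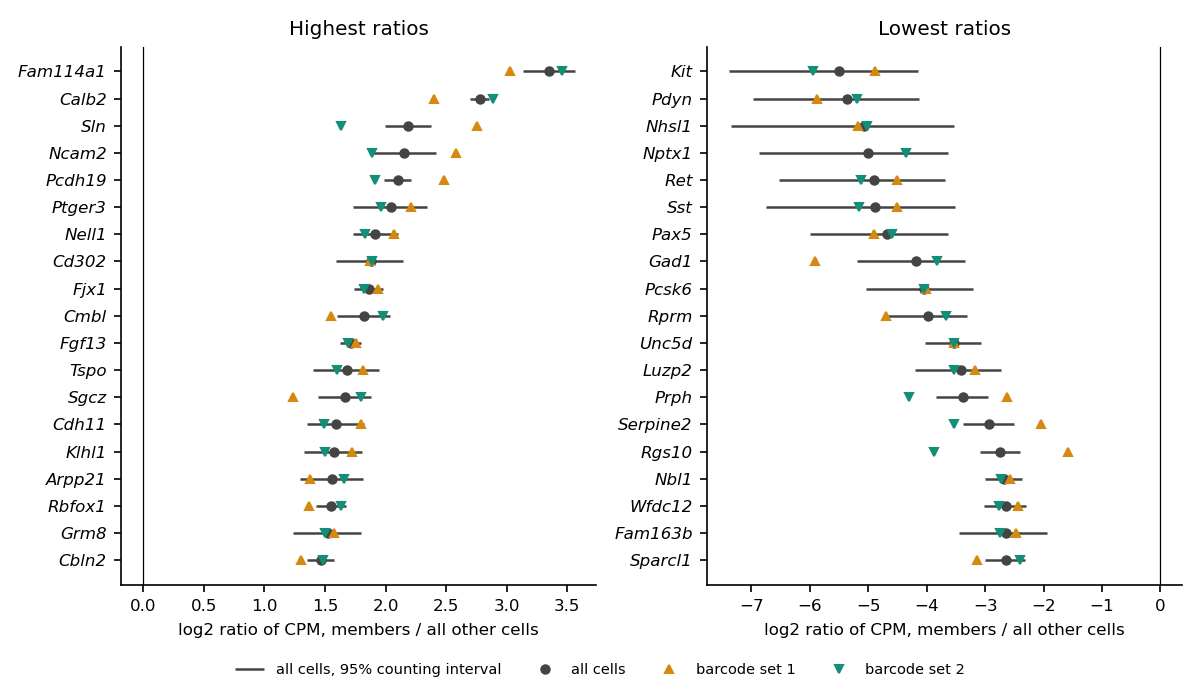
Log2 ratio of CPM, members over all other cells, for 19 of the 20 genes with the highest ratios and 19 of the 20 with the lowest. Circles with lines are all cells with the 95% counting interval, and triangles are each barcode set alone (no UMI of Nptx1 was found in members of set 1). Every triangle lies on the same side of 0 as its circle, and the sets differ most for Sln on the left (2.75 and 1.63) and Rgs10 on the right (-1.58 and -3.87).

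Fam114a1, a gene of little-known function, had the highest ratio. It was at 58.7 CPM in members (51.5 to 66.6) and 5.77 CPM in other cells, a log2 ratio of 3.35 (3.13 to 3.56). UMIs were found in 61 of 80 members and in 12.9% of the other cells, or in 63.2% and 7.97% after each cell was thinned to 20000 UMIs. Per cell it ranged from 0 to 186 CPM in members with a median of 53.2, and the ranges of the 2 groups overlapped. It was not particular to the members: the other cells of cluster 10, led by Zeb2 and Met, reached 67.0 CPM, while the other cells of clusters 1, 4, 5, 12 and 14 stood at 0.284 CPM or lower.

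Calb2, which makes the calcium-binding protein calretinin, came next. Its level was 384 CPM in members (365 to 404) and 56.1 CPM in other cells, a log2 ratio of 2.78 (2.70 to 2.85). Per member it ranged from 0 to 1190 CPM with a median of 259, and 69 of 80 members had a UMI, against 30.5% of the other cells, or 80.3% and 20.0% at 20000 UMIs. The highest level stood in cluster 12, led by Gpr101, Ecel1 and Sst, at 578 CPM, and cluster 9, which Calb2 itself leads, had 303 CPM. In the 60 cells of cluster 14, where Calb2 was at 1.09 CPM, 6.67% of cells had a UMI at a median of 61211 UMIs. The other 15 calcium-binding protein genes tested lay between a log2 ratio of -0.51 and 2-fold, so 1 of 16 was past 2-fold higher (6.25%, beside 1.08% over all genes) and 0 were lower.

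Sln, which encodes sarcolipin, a small inhibitor of the calcium pump of the endoplasmic reticulum, was at 63.1 CPM in members (55.6 to 71.3) and 13.8 CPM in other cells. Its log2 ratio of 2.19 came to 2.75 in barcode set 1 and 1.63 in set 2, and 37 of 80 members had a UMI, so it was carried by fewer than 1 in 2 of them. The highest member reached 433 CPM and the median was 0. Cluster 13, led by C1ql1, Rorb and Wnt4, was higher at 82.3 CPM.

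**Figure D3:**
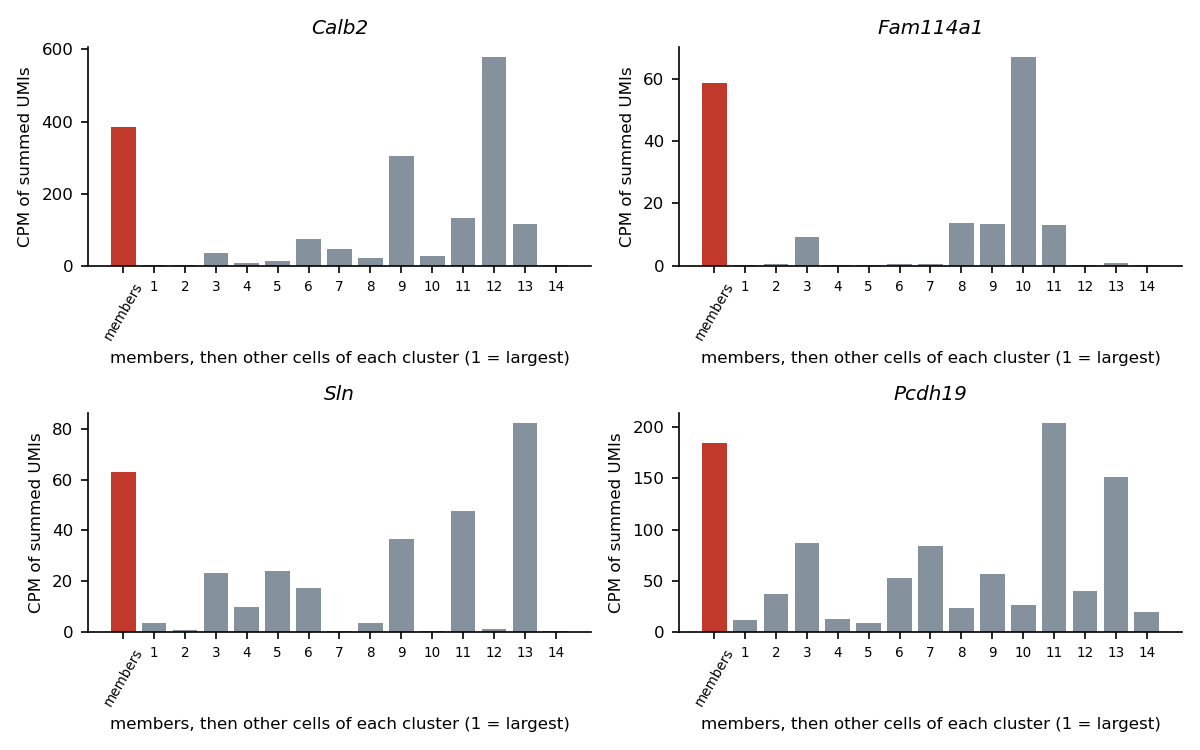
CPM of summed UMIs of Calb2, Fam114a1, Sln and Pcdh19 in the 80 members (red) and in the other cells of each of the 14 clusters, numbered from the largest (grey). In every panel 1 cluster stands above the members: cluster 12 for Calb2, 10 for Fam114a1, 13 for Sln and 11 for Pcdh19.

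For 6 of the 20 highest genes, the members' level lay above that of the other cells of every cluster as a point value. These were Ptger3, Nell1, Cd302, Fgf13, Tspo and Sgcz. Ptger3, a prostaglandin E2 receptor coupled to inhibition of cyclic AMP, was at 25.1 CPM in members (20.4 to 30.4) and at 18.6 CPM in the next cluster, with 6.08 CPM over all other cells. Nell1, a secreted glycoprotein, was at 65.3 CPM against 17.3 CPM in all other cells, and Fgf13, an intracellular partner of voltage-gated sodium channels, at 299 CPM against 91.1 CPM. Since the next cluster reached 57.8 CPM for Nell1 and 287 CPM for Fgf13, the members stood close above the other cells of their own Pcdh19-rich cluster for these 2 genes.

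The promoters of Fam114a1, which had the highest ratio, and of Ptger3, the highest-ranked gene that exceeded every cluster, are shown because Npas1, Npas3 and Pou3f1 of the score encode DNA-binding factors. RefSeq promoters (GRCm38.p6) were matched for 12 of the 20 highest genes, and the 250 bases before the start are printed 5′ to 3′ in lower case. The bHLH-PAS core ACGTG was searched on both strands, with matches in capitals. The Fam114a1 promoter lies at chr5:64969825-64970074 on the plus strand and the Ptger3 promoter at chr3:157566626-157566875 on the plus strand.
Fam114a1: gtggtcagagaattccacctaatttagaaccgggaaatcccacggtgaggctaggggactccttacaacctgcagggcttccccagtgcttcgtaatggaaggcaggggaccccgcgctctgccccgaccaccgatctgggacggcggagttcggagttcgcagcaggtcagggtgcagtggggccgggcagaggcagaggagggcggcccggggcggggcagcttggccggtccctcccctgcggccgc
Ptger3: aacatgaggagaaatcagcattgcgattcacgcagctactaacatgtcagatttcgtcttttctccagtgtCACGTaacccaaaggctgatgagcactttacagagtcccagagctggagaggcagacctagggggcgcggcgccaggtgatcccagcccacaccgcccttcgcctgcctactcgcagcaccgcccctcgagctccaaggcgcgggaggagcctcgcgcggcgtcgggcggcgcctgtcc
The Ptger3 promoter holds the core once, on the minus strand and starting 179 bases before the start, and the Fam114a1 promoter does not hold it. The core occurred in 16.6% of 32851 promoters of this length, in 22.5% of the promoters of genes tested and in 20.5% of the promoters of genes 2-fold higher in members, and in 3 of the 26 promoters (11.5%) of the 20 highest genes. The 26 promoters belong to 12 genes, so some genes count repeatedly. Arpp21 and Fgf13 have several each, some of them overlapping and none with the core. The 3 matches lie in Ptger3, Rbfox1 and Grm8. The POU octamer ATGCAAAT was in 1.60% of all promoters, in 0.939% of those of genes tested, in 1.37% of those of the higher genes and in 0 of the 26. A match describes these letters and not a bound site.

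Adhesion genes gave the largest number of higher genes of any list, and this list also had the most genes tested. Of 51 tested, 8 were at least 2-fold higher (15.7%) and 4 at least 2-fold lower (7.84%), beside 1.08% and 1.69% over all genes, with a list median of 0.03. Pcdh19, a delta-protocadherin, was at 185 CPM in members (172 to 199) and 43.1 CPM in other cells, and 79 of 80 members had a UMI. Ncam2, an immunoglobulin-type adhesion molecule, was at 33.6 CPM (28.2 to 39.8) against 7.55 CPM, and Cbln2, a secreted organizer of synapses, at 166 CPM (154 to 179) against 60.2 CPM. In the 61 members of the Pcdh19-rich cluster alone, Cbln2 (0.79) and Adgrl2 (0.76) were not 2-fold higher than all other cells. The others higher were Cdh11, Cdh18, Slitrk4, Alcam and Adgrl2, with log2 ratios from 1.10 to 1.59. Those lower were Pcdh11x, Tenm2, Amigo2 and Cadm1, from -2.51 to -1.33. Against the other cells of the Pcdh19-rich cluster alone, Pcdh19 (-0.14), Ncam2 (-0.28) and Cdh11 (-0.05) were not higher in members. Among 16 axon guidance genes, the netrin receptors went in both directions: Unc5c was at 43.2 CPM against 17.0 CPM, and Unc5d at 9.33 CPM (6.60 to 12.8) against 108 CPM, a log2 ratio of -3.53. Unc5d was found in 16 of 80 members and in 87.3% of other cells, and the nearest cluster, the other cells of the Pcdh19-rich one, stood at 12.6 CPM, inside the members' interval.

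Of the 4 transmitter genes tested, 3 were at least 2-fold lower (75.0%, beside 1.69% over all genes) and 0 higher. Gad1 and Gad2 make the enzymes of GABA synthesis. Gad1 was at 2.70 CPM in members (1.35 to 4.83) and 49.2 CPM in others, and Gad2 at 32.9 CPM (27.6 to 39.0) and 116 CPM, with UMIs in 21 of 80 members against 60.9% of other cells. Slc17a8, the vesicular glutamate transporter VGLUT3 that many serotonin neurons use for glutamate release, was at 68.5 CPM (60.7 to 77.1) against 161 CPM. The other cells of the Pcdh19-rich cluster stood below the members, at 8.41 CPM of Slc17a8. With 160 cells taken, its log2 ratio to the other cells was -0.66, short of 2-fold. The share of cells with a Slc17a8 UMI was 55.3% in members and 53.7% in others at 20000 UMIs, so the lower level was not matched by a lower share.

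In single cells, many members had neither of these transmitter markers. No UMI of Gad1, Gad2 or Slc17a8 was found in 18 of 80 members (22.5%) and in 63 of 2270 other cells (2.78%). At 20000 UMIs this was 24 of 76 members (31.6%) and 163 of 2221 other cells (7.34%). All 18 such members were in the Pcdh19-rich cluster, whose other cells gave 9 of 41 (22.0%). A UMI alone does not show that a cell uses the gene: Gad2 was found in 17.4% of cells of cluster 10 (median 45568 UMIs), where it was at 5.03 CPM, and Slc17a8 in 23.7% of cells of cluster 1 (median 57026 UMIs), where it was at 9.22 CPM.

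Of 22 serotonin identity genes tested, 1 passed 2-fold in each direction (4.55%, beside 1.08% and 1.69% over all genes). The higher one was Htr1d, a Gi-coupled serotonin receptor, at 35.6 CPM against 15.1 CPM, and the lower one En2, an engrailed homeobox factor, at 19.4 CPM against 42.5 CPM. The list median was -0.12. Tph2 was at 2243 CPM against 2858 CPM, Slc6a4 at 1805 against 2240 CPM, Fev at 302 against 337 CPM, and Slc22a3, a low-affinity monoamine transporter, at 138 against 110 CPM.

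Receptor genes outside the score showed single members that stood apart. Of 8 further GABA-A subunits tested, 1 was higher and 1 lower (12.5% each, beside 1.08% and 1.69% over all genes), with a list median of 0.05. The lower one was Gabrg3, a gamma subunit, at 12.5 CPM (9.33 to 16.5) against 29.2 CPM. Its log2 ratio was 1.41 against the other cells of the Pcdh19-rich cluster alone, and -0.75 with 160 cells taken. None of 10 ionotropic glutamate receptor genes passed 2-fold in either direction, and Gria1, an AMPA receptor subunit, had the largest ratio at 0.94. Among 14 G protein-coupled receptors tested, 2 were higher (14.3%, beside 1.08% over all genes) and 3 lower (21.4%, beside 1.69%). Grm5, a metabotropic glutamate receptor that couples to Gq, was at 5.40 CPM in members (3.39 to 8.18) and 26.7 CPM in others. Grm8, a metabotropic glutamate receptor that couples to Gi, was at 28.0 CPM against 9.74 CPM, and the lysophosphatidic acid receptor Lpar1 was at 6.39 against 33.7 CPM, and Hrh3, a Gi-coupled histamine receptor, at 12.3 against 28.6 CPM. The orexin receptor Hcrtr1 was at 102 CPM against 66.0 CPM, below 2-fold.

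Few channel genes passed 2-fold. Of 24 potassium channel genes tested, Kcnc4, a fast-gating Kv3 channel, was at 77.9 CPM against 33.5 CPM, Kcnq3, an M-current subunit, at 160 CPM against 77.9 CPM, and Dpp10, an auxiliary subunit of Kv4 channels, at 38.3 CPM against 103 CPM. These are 8.33% higher and 4.17% lower, beside 1.08% and 1.69% over all genes. Kcnq3 fell short of 2-fold in 8 of 20 alternatives to the processing, at log2 ratios of 0.89 to 0.996. Of 28 genes in the list of other channels and their partners, Fgf13, which encodes a channel partner and not a channel, alone passed 2-fold (3.57%). Of 19 glycolysis genes 0 passed 2-fold, where 1.08% and 1.69% of all genes did, and 15 of them had ratios above 0, beside 46.6% of all genes tested.

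Of 38 peptide and processing genes listed, 16 were tested, and 5 of these were lower (31.2%, beside 1.69% over all genes). Pdyn, the precursor of dynorphins, was at 1.23 CPM in members (0.399 to 2.87) and 50.3 CPM in others, and Sst, the somatostatin precursor, at 0.982 CPM (0.268 to 2.52) and 28.9 CPM. Sst was found in 4 of 80 members and 8.24% of other cells, and cluster 12 alone had 476 CPM, so 7 of the 14 clusters lay below the members. With 160 cells taken, the log2 ratio of Sst turned to 0.96. Pcsk6, a proprotein convertase, was at 2.70 CPM against 44.5 CPM, and Pam, which amidates peptides, at 163 CPM (151 to 176) against 497 CPM, with a UMI in all 80 members. Nxph1, a secreted ligand of neurexins, was the other lower gene, at 17.4 CPM against 67.2 CPM. The granule protein Chgb and the convertase Pcsk2 were at 1627 against 1216 CPM and 160 against 85.7 CPM, both above the other cells and below 2-fold.

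Of 16 transcription factors tested outside the score, 0 were 2-fold higher (1.08% over all genes) and 5 were lower (31.2%, beside 1.69%). Pax5, a paired-box factor of the midbrain-hindbrain boundary, was at 1.72 CPM (0.691 to 3.54) against 44.3 CPM, found in 7 of 80 members and 59.6% of other cells. Pbx3 was at 16.2 CPM against 83.6 CPM, Sox1 at 12.0 against 47.2 CPM, Maf at 7.86 against 26.6 CPM, and Zbtb20 at 251 against 598 CPM. Maf was highest in cluster 6, which it leads, at 187 CPM. The other cells of the Pcdh19-rich cluster had 1.58 CPM of Maf, and clusters 1, 2, 13 and 14 also lay below the members. Kit and Ret, receptor tyrosine kinases for stem cell factor and for the GDNF family, were at 0.982 CPM (0.268 to 2.52) against 44.8 CPM and 1.23 CPM (0.399 to 2.87) against 36.8 CPM. Kit was found in 4 of 80 members and 58.0% of other cells, and the nearest cluster, cluster 12, stood at 1.14 CPM, inside the members' interval. Fos, an immediate early gene that rises with activity and handling, was at 42.7 CPM (36.6 to 49.6) against 96.6 CPM, and the 7 immediate early genes tested had a median of -0.41. Fos fell short of 2-fold in 6 of 20 alternatives to the processing, among them barcode set 1 (-0.95) and thinning (-0.94).

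Hs3st5 and Ndst3, which add sulfate groups to heparan sulfate chains, were higher at 40.3 CPM (34.3 to 46.9) against 16.3 CPM and 32.7 CPM (27.3 to 38.7) against 13.9 CPM. They are 2 of the 8 enzymes of this kind tested (25.0%, beside 1.08% over all genes), and 0 were 2-fold lower. Hs3st5, a leading gene of the Cbln2-rich cluster, was at 48.6 CPM in that cluster's other cells, above the members. The other cells of the Pcdh19-rich cluster had 34.2 CPM of Hs3st5. Of the remaining high genes, Tspo, a protein of the outer mitochondrial membrane, was at 31.2 CPM against 9.74 CPM, and Rbfox1, a neuronal splicing factor, at 142 CPM (130 to 154) against 48.4 CPM. Fjx1, a secreted protein related to fly four-jointed, was at 157 CPM (145 to 170) against 43.3 CPM, though cluster 10 reached 167 CPM. Of the remaining low genes, Prph, the intermediate filament peripherin, was at 10.6 CPM (7.64 to 14.2) against 110 CPM, and Nptx1, a secreted neuronal pentraxin, at 0.982 CPM (0.268 to 2.52) against 31.4 CPM. Rgs10, which shortens G protein signals, was at 17.7 CPM (13.8 to 22.3) against 118 CPM, with ratios of -1.58 and -3.87 in the barcode sets.

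Dlk1, an imprinted gene for a membrane protein related to Notch ligands, was at 636 CPM in members (612 to 661) and 243 CPM in other cells, a log2 ratio of 1.39 that was 2.12 in barcode set 1 and 0.83 in set 2. The members did not hold the highest level: the other cells of the Pcdh19-rich cluster had 1039 CPM, those of cluster 14 had 1207 CPM and those of cluster 12 had 821 CPM. Of 28 imprinted genes tested it was the 1 that was 2-fold higher and Asb4, at 30.7 against 180 CPM, the 1 that was lower (3.57% each, beside 1.08% and 1.69% over all genes). Members of the Pcdh19-rich cluster had 824 CPM and a median of 916 per cell, and members of the Cbln2-rich cluster 185 CPM and a median of 95.8. Dlk1 and Cbln2 are among the genes that lead these clusters, so the differences between both sets of members in them follow from the clustering and are given as a description. The 61 members of the first cluster exceeded the 15 of the second by a log2 ratio of 2.15 (1.94 to 2.37) for Dlk1 and 1.37 (0.83 to 1.95) for Sln. For Cbln2 the order was turned, with 104 CPM (92.1 to 117) in the first and 323 CPM (290 to 358) in the second, and Slc17a8 was at 39.7 and 118 CPM. The 15 cells had a median of 72562 UMIs and the 61 cells one of 46614, and the part of depth in these levels was not tested.

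Calb2 and Fam114a1 had higher summed levels in both sets of members than in the cells they clustered with, though not in every member. Calb2 was at 396 CPM in members of the Pcdh19-rich cluster (373 to 420) and 132 CPM in its 41 other cells (117 to 150). In the Cbln2-rich cluster it was at 396 CPM in members (360 to 435) and 35.6 CPM in the 230 other cells (32.7 to 38.7). UMIs of Calb2 were in 51 of 61 and 15 of 15 members, and in 21 of 41 and 98 of 230 other cells of the same clusters. Fam114a1 followed the same pattern, at 62.3 CPM (53.3 to 72.4) and 54.1 CPM (41.2 to 69.8) in the members, and 13.1 CPM (8.50 to 19.4) and 9.35 CPM (7.90 to 11.0) in the other cells. Both genes had a UMI in 43 of 61 and 13 of 15 members, and in 9 of 41 and 35 of 230 other cells. The 19 members without an Npas1 UMI, 16 of them in the Pcdh19-rich cluster, had 106 CPM of Calb2, with a UMI in 11 cells, and 21.9 CPM of Fam114a1, so for Calb2 they lay below the 132 CPM of the other cells of that cluster. Median depth was close within each cluster, with 46614 and 45803 UMIs in the first and 72562 and 69948 UMIs in the second.

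These differences held in each barcode set. For Calb2 the log2 ratio inside the Pcdh19-rich cluster was 1.33 in set 1 (26 members) and 1.68 in set 2 (35 members), and inside the Cbln2-rich cluster 2.13 in set 1 (3 members) and 4.01 in set 2 (12 members). For Fam114a1 the 4 values were 1.34, 2.78, 2.03 and 2.71. The same score cut both clusters and the split was made after the data were seen, so the match between clusters is a description.

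**Figure D4:**
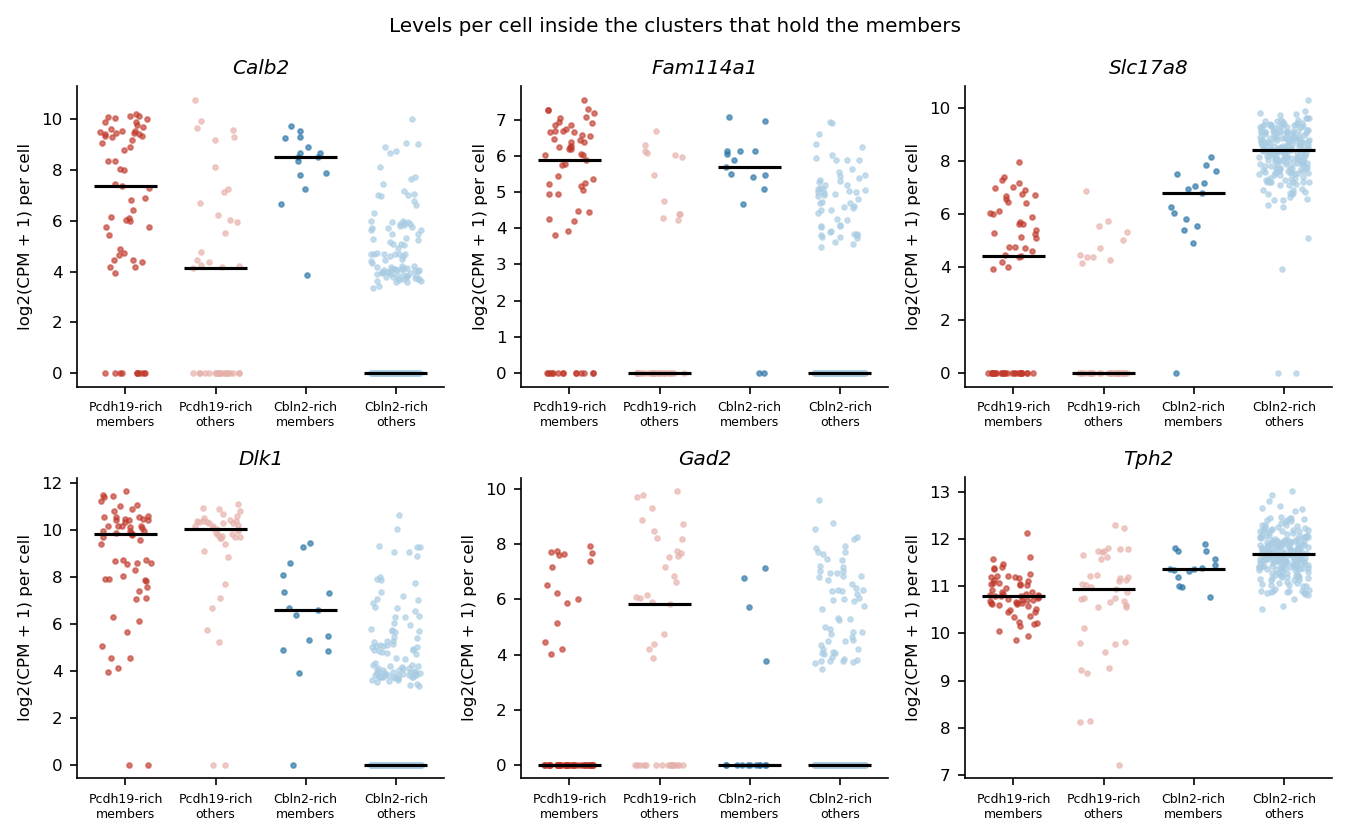
Level per cell, log2(CPM + 1), of 6 genes in members and other cells of the Pcdh19-rich cluster (61 and 41 cells) and of the Cbln2-rich cluster (15 and 230 cells), with a bar at the median. Calb2 and Fam114a1 have higher medians in members of both clusters, Dlk1 is high in both groups of the first cluster, and the Slc17a8 median is lower in members than in other cells in the second cluster but not in the first.

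Few other genes behaved in this way. With at least 30 UMIs in the members of a cluster, or as many expected, 8388 genes were tested inside the Pcdh19-rich cluster and 1.01% were 2-fold higher and 1.17% lower in members. Inside the Cbln2-rich cluster 5535 were tested, with 1.25% higher and 0.994% lower. Of 5509 genes tested in both, 27 and 66 were higher, and 9 were higher in both, which is 33.3% of the first list and 13.6% of the second. These were Calb2, Fam114a1, Klhl1, Parm1, Fjx1, Ephb6, Cnksr2, Adgrl2 and Nwd2. Of 18 and 39 lower genes, 11 were lower in both, which is 61.1% of the first list and 28.2% of the second, and Fos, Serpine2, Unc5d, Nxph1, Sparcl1, Rgs10, Ntng1, Phlda1 and Fhod3 were among them. Fos was at 43.4 against 125 CPM in the first cluster and 33.9 against 82.7 CPM in the second. Inside the Pcdh19-rich cluster Unc5d and Nxph1 were not lower in barcode set 1, with ratios of 0.37 and 1.14.

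Slc17a8 differed in opposite directions in the 2 clusters. Inside the Pcdh19-rich cluster, members had 39.7 CPM of this transporter (32.6 to 47.9) and the other cells 8.41 CPM (4.81 to 13.7), and inside the Cbln2-rich cluster members had 118 CPM (98.8 to 141) and the other cells 363 CPM (353 to 372). The log2 ratios were 2.24 (1.48 to 3.10) and -1.62 (-1.88 to -1.36), with intervals that do not overlap, and each kept its sign in both barcode sets, at 2.37 and 2.18 in the first cluster and -2.16 and -1.46 in the second. Gad2 was lower in members of the first cluster, at 35.7 CPM (29.0 to 43.5) against 130 CPM (114 to 147), and near the other cells in the second, at 22.0 CPM (14.1 to 32.8) against 26.9 CPM (24.4 to 29.6).

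The manually sorted cells, 70 single neurons in 8 labelled groups with between 756872 and 7664103 reads on genes, were used to look for the same genes in dissected parts of the dorsal raphe. The groups combine Pet1::Flpe and RC::FrePe with a Cre driver, Sert, Npy2r, P2ry1 or Crh, and a dissected domain, and none is labelled ventrolateral. Mice were at postnatal day 63 or 90 for Sert, 62 to 74 for P2ry1, 77 or 87 for Npy2r and 83 or 119 for Crh, so the ages differ between drivers and within groups. No label ties a cell to an animal, though the ages show that a group can hold several, so the groups are described without a test. Values here are CPM of reads per cell. Calb2 was highest in Npy2r caudal cells, with a median of 591 CPM and reads in 9 of 10 cells, and Fam114a1 in P2ry1 caudal cells, with a median of 81.7 CPM and reads in 8 of 10 cells. Sert ventromedial cells came next for Fam114a1, with a median of 28.6 CPM and reads in 5 of 8 cells, and Calb2 had reads in 1 of these 8. Dlk1 had its highest median, 688 CPM, in the same ventromedial cells. No group had high medians of both Calb2 and Fam114a1. With 6 to 10 cells per group, a median cannot show a few such cells, and cells with both genes were not counted.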

How the data were processed

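Reads of the 10X libraries were processed by the authors with Cell Ranger 3.0.2 against mm10, and those of the manually sorted cells with STAR 2.5.4. The authors deposited 1 table of UMI counts after filtering cells and genes, and 1 table of read counts, neither normalized. Nothing in the 10X table gives a cell's run or animal, so tests between cells were not made. Clustering was run in Seurat 5.3.0 (R 4.3.3) with 2000 variable genes, components 1 to 5 and 8 to 50, 20 neighbours and a resolution of 0.9, with the rule genes left out for the split of members. Doublets were called with Scrublet in scanpy 1.11.5 at an expected rate of 5%, and cells were thinned to 20000 UMIs, which left out 53. Python 3.11.15, numpy 2.4.6 and scipy 1.17.1 gave ratios and intervals, tested on simulated data. Genes were named as the 20 highest and 20 lowest ratios with 1 sign in both barcode sets, or as members of gene lists. Counts include a few genes whose names are not reported here. The members and the lists were chosen with earlier results of these data known. Alternatives varied the number of cells, the score, depth, barcode set, doublets, the UMI minimum and the cells compared.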

Additional observations from a re-analysis of the deposited data

How the results depend on the processing

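Of 1075 ratios of 54 named genes under 20 alternatives other than comparisons with single clusters, 1073 kept their direction. The exceptions were Sst at 0.96 with 160 cells taken and Adgrl2 at -0.79 in the 19 members without an Npas1 UMI, an alternative chosen after the data were seen. Of these values 47, of 20 genes, were no longer 2-fold, and 34 genes stayed past it throughout. Other genes named above as past 2-fold, such as Lpar1, Nxph1, Sox1, Maf, Asb4, Dpp10, Hs3st5, Ndst3 and Alcam, were not among the 54. Fos fell short in 6 alternatives (-0.61 with 160 cells, -0.91 with 100, -0.84 without Npas1 in the score, -0.95 without Pou3f1 in it or in barcode set 1, -0.94 thinned) and Kcnq3 in 8 (0.89 to 0.996). With 160 cells Slc17a8 was at -0.66, Gabrg3 at -0.75 and Grm5 at -0.97. Dlk1 (0.83), Htr1d (0.89) and Kcnq3 fell short in barcode set 2, Zbtb20 (-0.93) in set 1, En2 (-0.85) when thinned, and Adgrl2 with 100 cells (0.95) and without Npas1 in the score (0.76). In the 19 members without an Npas1 UMI Calb2 was at 0.92, Fam114a1 at 1.93 and Slc17a8 at -2.96. Tspo (0.32), Klhl1 (0.41), Cbln2 (0.44), Arpp21 (0.71), Cd302 (0.72), Gabrg3 (-0.68) and En2 (-0.73) were also below 2-fold in these 19. In the members outside the Pcdh19-rich cluster Dlk1 was at 0.03, Gabrg3 at -0.19 and Slc17a8 at -0.33. Grm8 (0.83), Tspo (0.89), Ncam2 (0.92), Htr1d (0.92) and Klhl1 (0.99) were also below 2-fold in those members. Leaving 1 rule gene out of the score kept between 67 and 77 of the 80 cells and gave 58 to 62 higher and 96 to 104 lower genes. In place of 64 higher and 100 lower genes there were 36 and 50 with 40 cells taken, 21 and 39 after thinning, 26 and 35 in barcode set 1, 36 (higher) in barcode set 2, 16 and 28 for members outside the Pcdh19-rich cluster, and 13 and 17 for the 19 members without an Npas1 UMI, all of which have fewer UMIs and so fewer genes tested. Members with a UMI of all 6 rule genes gave 40 higher genes. A minimum of 30 UMIs gave 106 and 229, a minimum of 300 gave 20 and 33, and no minimum gave 984 and 3417, so the counts depend on that minimum. Against the other cells of the Pcdh19-rich cluster 33 genes were lower. Against single clusters, counts that differed by over 1.5 times were 146, 107, 134, 106, 101, 191, 123, 298, 175 and 165 higher genes and 181, 213, 171, 428, 203, 277 and 187 lower genes. The share of members in their largest cluster was 85.0% with 40 or 60 cells taken and 55.0% with 160. No paired analysis was possible because no result comes from a test between replicate samples.

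Against cluster 1, the log2 ratio was on the other side of 0 for Sst 0.12, Slc17a8 2.89 and Gabrg3 4.41. Against cluster 2, the log2 ratio was on the other side of 0 for Sst 0.75, Rgs10 0.86, Slc17a8 1.84 and Gabrg3 1.76. Against cluster 3, the log2 ratio was on the other side of 0 for Cbln2 -0.15, Sst 0.78 and Gad2 0.29. Against cluster 4, the log2 ratio was on the other side of 0 for Slc17a8 0.58. Against cluster 5, the log2 ratio was on the other side of 0 for Slc17a8 0.55 and Gabrg3 0.44. Against cluster 6, the log2 ratio was on the other side of 0 for Prph 1.03. Against cluster 7, the log2 ratio was on the other side of 0 for Ncam2 -0.72, Klhl1 -0.23, Arpp21 -0.54, Rbfox1 -0.041, Grm8 -0.12, Prph 1.37, Wfdc12 2.09, Adgrl2 -0.0135 and Pam 0.43. Against cluster 8, the log2 ratio was on the other side of 0 for Grm5 1.89 and Adgrl2 -1.13. Against cluster 9, the log2 ratio was on the other side of 0 for Sst 1.38, Pax5 0.61, Gad1 1.26, Prph 0.69, Gad2 2.91, En2 0.64 and Hrh3 0.38. Against cluster 10, the log2 ratio was on the other side of 0 for Fam114a1 -0.19, Fjx1 -0.0838, Arpp21 -1.63, Pdyn 0.0242, Sst 0.29, Pax5 2.09, Gad1 1.75, Pcsk6 2.16, Rprm 0.29, Prph 1.54, Gad2 2.71, En2 2.68, Gabrg3 3.64, Hrh3 1.12, Unc5c -1.37 and Zbtb20 2.31. Against cluster 12, the log2 ratio was on the other side of 0 for Calb2 -0.59, Ncam2 -0.00562, Pax5 1.01, Pcsk6 1.25, Prph 3.22, Dlk1 -0.37 and Hrh3 1.19. Against cluster 13, the log2 ratio was on the other side of 0 for Sln -0.38, Cmbl -0.70, Ret 0.12, Pax5 0.87, Gad1 1.85, Rprm 1.10, Serpine2 0.51, Gad2 1.96, En2 2.69, Hrh3 0.47 and Kcnq3 -0.11. Against cluster 14, the log2 ratio was on the other side of 0 for Arpp21 -0.24, Sst 0.85, Rprm 0.12, Rgs10 2.44, Slc17a8 3.28, Dlk1 -0.93, Gabrg3 2.53 and Zbtb20 0.15. Against the other cells of the Pcdh19-rich cluster (cluster 11), an alternative chosen after the data were seen, the log2 ratio was on the other side of 0 for Ncam2 -0.28, Pcdh19 -0.14, Cmbl -0.29, Cdh11 -0.0529, Ret 0.22, Nbl1 0.77, Wfdc12 0.80, Slc17a8 3.03, Dlk1 -0.71, Htr1d -0.0467, Gabrg3 1.41, Grm5 0.19 and Zbtb20 0.38. The causes were not tested.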
